A study of Homo sapiens with 8 samples.

Results

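BLOC-1 is a protein complex of 8 different subunits that sorts cargo from early endosomes into tubules bound for lysosomes and lysosome-related organelles such as melanosomes and platelet dense granules. Its members were the genes BLOC1S1, BLOC1S2, BLOC1S3, BLOC1S4, BLOC1S5, BLOC1S6, SNAPIN and DTNBP1. The set was chosen by membership of the complex after BLOC1S6 had been seen to be lower in all 4 cell lines when BMI1 was knocked down. The change with knockdown is therefore described for all members without a test. Of the 8 members, 7 had at least 1 probe set annotated to them alone, 12 probe sets in all, among 19776 genes on the array. BLOC1S5 had none, and its readings come from 2 probe sets that also match the read-through transcript EEF1E1-BLOC1S5.

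The samples were pairs of RNAs from 4 established human neuroblastoma lines: SK-N-BE, SK-N-DZ, SH-SY5Y and NB-39-nu. Every line contributed 1 shCont array, from cells infected with the pLKO.1 control lentivirus, and 1 shBMI1-1 array, from cells infected with a single hairpin against BMI1, a subunit of the Polycomb repressive complex. RNA was collected 8 to 14 days after infection; no label ties an array to a day. The lines are the replicates, and within a line a difference rests on 1 array against 1 array. Such bulk RNA cannot tell fewer cells of a type from less RNA per cell.

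Pallidin, the product of BLOC1S6, joins the complex through coiled coils and binds the endosomal fusion protein syntaxin 13, while dysbindin, the product of DTNBP1, and snapin are known in neurons for their roles at synapses. BLOC1S1, BLOC1S2 and snapin are also subunits of BORC, a related complex that couples lysosomes to kinesin motors. Inherited loss of several subunits, among them pallidin and dysbindin, causes Hermansky-Pudlak syndrome, with pale skin and hair and poor platelet function. Subunits of BLOC-1 are known to depend on each other for stability as proteins, which RNA arrays do not measure.

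Markers of the labelled cell type were bright. Of 6 measured adrenergic neuroblastoma markers, 5 lay above the median signal of the table (75) on all 8 arrays, and TH did so on 3. Their summed signal was 22600 to 60200 in shCont and 23100 to 70100 in shBMI1-1. None of 4 melanocyte, 3 blood or 1 Schwann cell markers was above that median on all arrays, and the melanocyte markers summed to at most 591. Still, PMEL was above the median on 6 of 8 arrays, TYRP1 and S100B on 4, PTPRC on 2, and TYR and CD3E on 1. Of 6 mesenchymal markers, COL1A2 was above it on no array, COL1A1 and LUM on all 8, COL3A1 on 7, PDGFRA on 6 and DCN on 3. The sums of the 6 were 929 to 6160 in shCont and 856 to 16000 in shBMI1-1. The highest sum was mostly LUM, which read 5522 and 14204 in the shCont and shBMI1-1 arrays of NB-39-nu. The part of these markers in the results was not tested. After knockdown BMI1 kept 24.6% of its shCont signal in NB-39-nu and 39.4% in SK-N-DZ, and it kept more in SH-SY5Y (65.5%) and SK-N-BE (65.0%). That probe set is shared with the COMMD3-BMI1 read-through.

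Among the 7 subunits with a probe set of their own, the 2 that lay on the same side of their control in every line, BLOC1S6 below it and, on its brightest probe set, DTNBP1 above it, are shown by the 250 bases before the annotated start of each gene. The sequences are RefSeq's for GRCh38.p14, read 5′ to 3′ on the gene's strand, at chr15:45586873-45587122 on the plus strand for BLOC1S6 and chr6:15663059-15663308 on the minus strand for DTNBP1. Capitals mark the CCAAT box (CCAAT), the GC box (GGGCGG) and the E-box CACGTG, a motif known to be bound by MYC family factors and by regulators of lysosomal genes, searched on both strands.
BLOC1S6: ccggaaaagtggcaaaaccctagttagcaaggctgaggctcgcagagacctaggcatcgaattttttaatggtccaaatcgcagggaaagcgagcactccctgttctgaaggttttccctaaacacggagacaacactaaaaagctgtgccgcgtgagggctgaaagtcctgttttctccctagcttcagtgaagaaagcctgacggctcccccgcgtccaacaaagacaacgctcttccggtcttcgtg
DTNBP1: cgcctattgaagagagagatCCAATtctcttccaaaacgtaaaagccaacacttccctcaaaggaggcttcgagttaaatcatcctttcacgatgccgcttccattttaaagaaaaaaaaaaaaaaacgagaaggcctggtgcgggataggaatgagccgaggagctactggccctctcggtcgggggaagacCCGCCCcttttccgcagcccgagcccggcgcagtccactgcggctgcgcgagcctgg
The BLOC1S6 window held none of the 3 motifs, and the DTNBP1 window held 1 CCAAT box and 1 GC box. Such a window was at hand for 7 members, with BLOC1S5 among them but not BLOC1S4. Of these 7, 6 held a GC box, 3 a CCAAT box and 2, BLOC1S1 and BLOC1S3, the E-box. Among 24885 windows of the same length, the shares were 41.7%, 33.4% and 6.44%. The matches are letters in these windows only.

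BLOC1S6 read lower after knockdown on each of its 3 probe sets in each of the 4 lines. On the brightest one it read 4073 in shCont and 1476 in shBMI1-1 in NB-39-nu, 6242 and 3434 in SH-SY5Y, 9148 and 3533 in SK-N-BE, and 6835 and 2775 in SK-N-DZ. All 4 shBMI1-1 readings lay below the lowest shCont reading, so the groups did not overlap. Its mean log2 ratio, on the scale log2(signal + 8), was -1.25 ± 0.27 (SD, n = 4 lines). These values chose the set and are given without a test, and how many other genes separated in this way was not counted.

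The 2 dimmer BLOC1S6 probe sets had similar means and a wider spread between lines. On the second brightest the shCont and shBMI1-1 signals were 462 and 225 in NB-39-nu, 823 and 427 in SH-SY5Y, 736 and 489 in SK-N-BE, and 1257 and 197 in SK-N-DZ. Here the groups overlapped, because the SK-N-BE reading after knockdown was above the shCont reading of NB-39-nu. The mean log2 ratio was -1.29 ± 0.91 (SD, n = 4 lines). On the dimmest the signals were 398 and 111 in NB-39-nu, 625 and 452 in SH-SY5Y, 471 and 356 in SK-N-BE, and 698 and 240 in SK-N-DZ, with a mean of -1.03 ± 0.71.

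The probe sets ordered the lines differently. The brightest left 55.0% of the shCont signal in SH-SY5Y, and 36.2%, 38.6% and 40.6% in NB-39-nu, SK-N-BE and SK-N-DZ. The second left 15.7% in SK-N-DZ, 48.7% in NB-39-nu, 51.9% in SH-SY5Y and 66.5% in SK-N-BE. The dimmest left 28.0% in NB-39-nu, 34.4% in SK-N-DZ, 72.4% in SH-SY5Y and 75.5% in SK-N-BE. Like BMI1, both dimmer probe sets kept less signal in NB-39-nu and SK-N-DZ than in SH-SY5Y and SK-N-BE. The brightest did not split the lines in that way, since SK-N-BE kept less than SK-N-DZ. A relation to the depth of the BMI1 knockdown was not tested over these 4 lines.

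**Figure D1:**
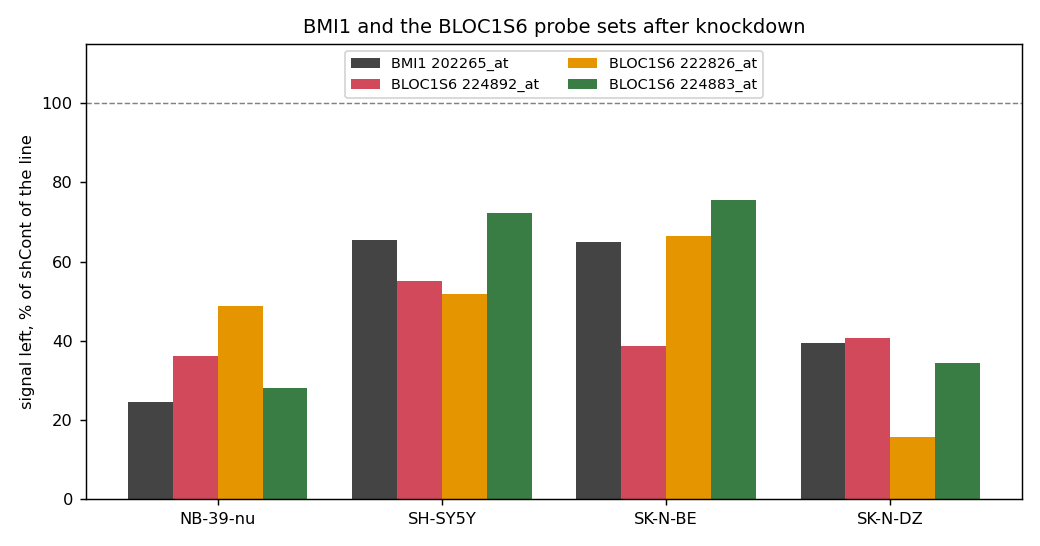
Signal left after knockdown as a percentage of the shCont array of the same line, for BMI1 (dark grey) and the 3 BLOC1S6 probe sets from the brightest (red) through the second (orange) to the dimmest (green); each bar is 1 array over 1 array, with no replicate, and the dashed line marks 100%. BLOC1S6 lies between 15.7% and 75.5% in every bar, and BMI1 between 24.6% and 65.5%.

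The other subunits did not share the low readings of BLOC1S6. All 7 members with a probe set of their own passed the filter on dim genes, which keeps genes whose mean lies above that of the median gene. Of these, 1 was lower in all 4 lines (BLOC1S6), 1 was higher in all 4 (DTNBP1) and 5 were split. Among the 9888 genes above the filter, 7.65% were lower and 10.6% higher in all 4 lines. The median of the members' mean log2 ratios was 0.07, beside 0.03 for all genes above the filter. The test of knockdown against the spread between lines (limma, Benjamini-Hochberg adjusted p under 0.05) is given below for genes outside the complex only. It is not given for the members, because the same contrast chose the set.

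**Figure D2:**
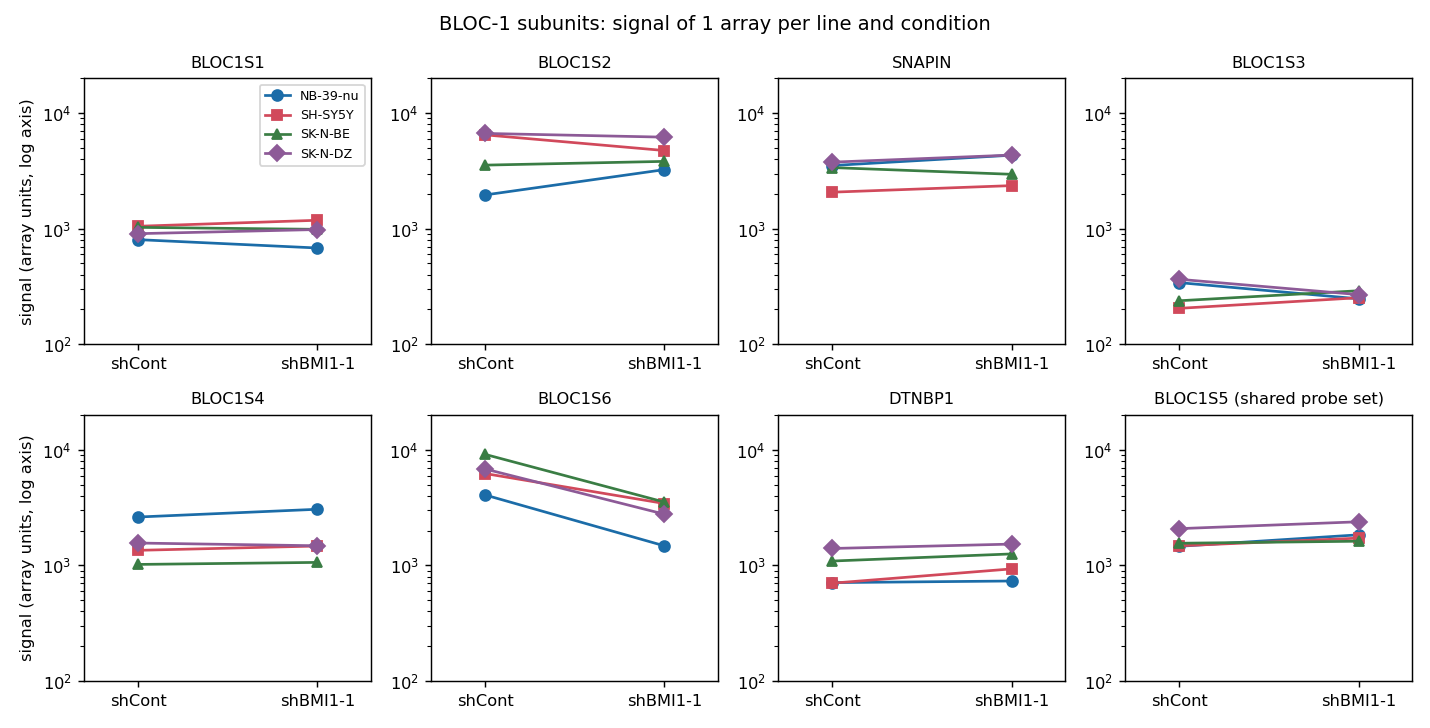
Signal of each subunit's brightest probe set on a log axis, with 1 line joining the shCont and shBMI1-1 arrays of each cell line; BLOC1S5 is shown by the brighter of its shared probe sets. BLOC1S6 drops in all 4 lines, from 4073 to 1476 in NB-39-nu for example, while DTNBP1 is slightly higher in all 4 on this probe set, though not with its probe sets averaged.

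Among the subunits that BLOC-1 shares with BORC, BLOC1S1 was nearly level. It read 804 in shCont and 681 in shBMI1-1 in NB-39-nu, 1050 and 1183 in SH-SY5Y, 1027 and 988 in SK-N-BE, and 906 and 984 in SK-N-DZ. It was lower in 2 lines and higher in 2, with a mean log2 ratio of -0.0012 ± 0.18 (SD, n = 4 lines). BLOC1S2 varied most between lines, from 1961 to 3248 in NB-39-nu, 6493 to 4751 in SH-SY5Y, 3552 to 3828 in SK-N-BE and 6683 to 6203 in SK-N-DZ. Its mean was 0.07 ± 0.49, and -0.15 without NB-39-nu. SNAPIN, whose product also binds SNAP25 of the fusion machinery, read 3523 and 4329 in NB-39-nu, 2071 and 2361 in SH-SY5Y, 3382 and 2959 in SK-N-BE, and 3770 and 4340 in SK-N-DZ. It was higher in 3 of 4 lines, with a mean of 0.12 ± 0.22.

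Of the subunits found in BLOC-1 and not in BORC, DTNBP1 was higher in every line on its 2 brighter probe sets. On the brightest it went from 709 to 733 in NB-39-nu, 702 to 933 in SH-SY5Y, 1091 to 1257 in SK-N-BE and 1401 to 1529 in SK-N-DZ, a mean log2 ratio of 0.20 ± 0.15 (SD, n = 4 lines). The groups overlapped widely, since the lines differed more than the conditions. On the second the pairs were 379 and 424, 382 and 465, 553 and 703, and 790 and 988 in the same order of lines, with a mean of 0.27 ± 0.08. Another, dim probe set averaged 96.0 and was split, higher in 2 lines and lower in 2, at -0.10 ± 0.92. With all probe sets of a gene averaged, DTNBP1 was no longer higher in all 4 lines and no member was.

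BLOC1S4, the subunit once named cappuccino, went from 2624 to 3062 in NB-39-nu, 1351 to 1472 in SH-SY5Y, 1020 to 1062 in SK-N-BE and 1562 to 1480 in SK-N-DZ. Its mean was 0.08 ± 0.13 (SD, n = 4 lines), higher in 3 lines. BLOC1S3 went from 341 to 247 in NB-39-nu, 204 to 253 in SH-SY5Y, 238 to 290 in SK-N-BE and 365 to 269 in SK-N-DZ, with 2 lines higher and 2 lower and a mean of -0.08 ± 0.42. Its other probe set was dim, at 98.2 or less on all arrays. It read 54.3 and 10.3, 54.9 and 5.79, 98.2 and 18.4, and 21.1 and 70.7 in the same order of lines, a mean of -1.13 ± 1.72. At such low signals a ratio of 1 array pair has little precision.

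The shared BLOC1S5 probe sets, which cannot separate muted, the BLOC1S5 protein's transcript, from the read-through, were also not lower. The brighter one read 1464 and 1840 in NB-39-nu, 1477 and 1723 in SH-SY5Y, 1556 and 1620 in SK-N-BE, and 2082 and 2386 in SK-N-DZ. It was higher in 4 of 4 lines, with a mean log2 ratio of 0.20 ± 0.11 (SD, n = 4 lines). It is of a design that can also bind related transcripts. The dimmer one was higher in 3 lines, at a mean of 0.11 ± 0.16.

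**Figure D3:**
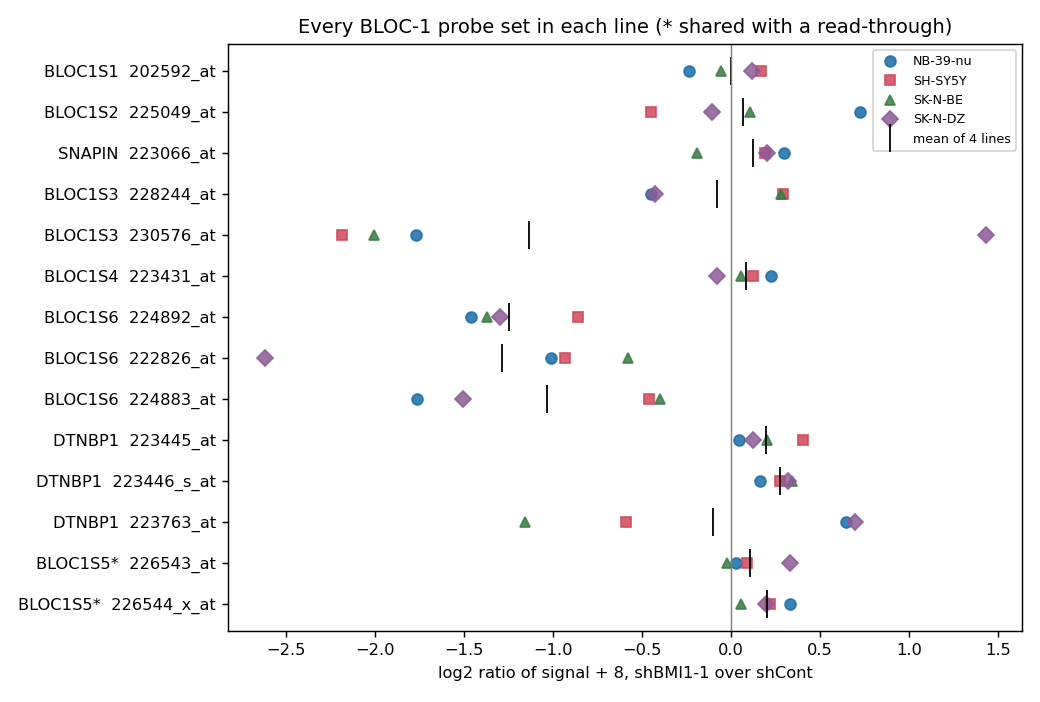
The log2 ratio of signal + 8, shBMI1-1 over shCont, for all 14 probe sets of the complex (vertical axis), with 1 symbol per line and a black tick for the mean of the 4 lines; asterisks mark the probe sets shared with the read-through. The 3 BLOC1S6 probe sets lie left of 0 in every line, with means of -1.25, -1.29 and -1.03, and the dimmer BLOC1S3 probe set is the one other with a mean below -1.

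The level of most subunits depended on the cell line, which the choice of members did not use. Line levels are the mean log2(signal + 8) of a line's 2 arrays, and a limma F test over the 4 lines, with treatment in the model, set them against the spread of arrays within lines. Of the 6 subunits other than BLOC1S6, 4 differed between lines, beside 79.9% of all genes tested: BLOC1S4 (limma adjusted p = 2.9e-04), DTNBP1 (limma adjusted p = 0.00224), BLOC1S2 (limma adjusted p = 0.00308) and SNAPIN (limma adjusted p = 0.00309). BLOC1S1 (limma adjusted p = 0.0675) and BLOC1S3 (limma adjusted p = 0.555) did not pass. The share is no higher than that of other genes. BLOC1S6 also passed, but its error comes from the same 4 ratios that chose it, so its p-values are not given.

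The order of the lines varied between subunits, although SNAPIN and BLOC1S3 shared one. BLOC1S4 was highest in NB-39-nu at 11.47, then SK-N-DZ at 10.58, SH-SY5Y at 10.47 and SK-N-BE at 10.03. NB-39-nu stood above the next line by 0.90 (SE 0.16; limma adjusted p = 0.00188), and SH-SY5Y above SK-N-BE by 0.44 (SE 0.16; limma adjusted p = 0.0467), whereas SK-N-DZ and SH-SY5Y did not differ beyond their spread. BLOC1S2 kept the other lines in that order but had NB-39-nu at the bottom, with SK-N-DZ at 12.65, SH-SY5Y at 12.44, SK-N-BE at 11.85 and NB-39-nu at 11.31. No neighbours in that order passed, but SK-N-DZ exceeded NB-39-nu by 1.35 (SE 0.24; limma adjusted p = 0.00206).

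DTNBP1 was lowest in NB-39-nu at 9.51, followed by SH-SY5Y at 9.67, SK-N-BE at 10.20 and SK-N-DZ at 10.52. The middle step, SK-N-BE over SH-SY5Y by 0.53, passed (SE 0.17; limma adjusted p = 0.034), and the outer steps did not. Its second probe set gave the same order in shCont, from 379 and 382 to 553 and 790. SNAPIN was lowest in SH-SY5Y at 11.12, which lay under SK-N-BE (11.63) by 0.52 (SE 0.16; limma adjusted p = 0.0248). NB-39-nu at 11.93 and SK-N-DZ at 11.98 did not differ beyond their spread from each other, nor NB-39-nu from SK-N-BE.

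BLOC1S1 spanned 9.55 in NB-39-nu to 10.13 in SH-SY5Y, with SK-N-DZ at 9.89 and SK-N-BE at 9.99 between them. Its ends differed (0.59, SE 0.18; limma adjusted p = 0.0258), although its F test did not pass, and no neighbours did. BLOC1S3 spanned 7.88 in SH-SY5Y to 8.33 in SK-N-DZ, and no pair of lines passed. BLOC1S6 was lowest in NB-39-nu at 11.27 and highest in SK-N-BE at 12.47, with SK-N-DZ at 12.09 and SH-SY5Y at 12.18 between them. NB-39-nu had its lowest shCont reading on all 3 probe sets.

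Over the 6 pairs of lines, the number of these other 6 subunits that passed was 4 for SH-SY5Y against NB-39-nu (49.9% of all genes tested), 2 for SK-N-BE against NB-39-nu (46.9%) and 3 for SK-N-DZ against NB-39-nu (46.8%). It was 3 for SK-N-BE against SH-SY5Y (48.4%), 2 for SK-N-DZ against SH-SY5Y (51%) and 2 for SK-N-DZ against SK-N-BE (50.3%). In all, 16 of 36 comparisons passed.

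**Figure D4:**
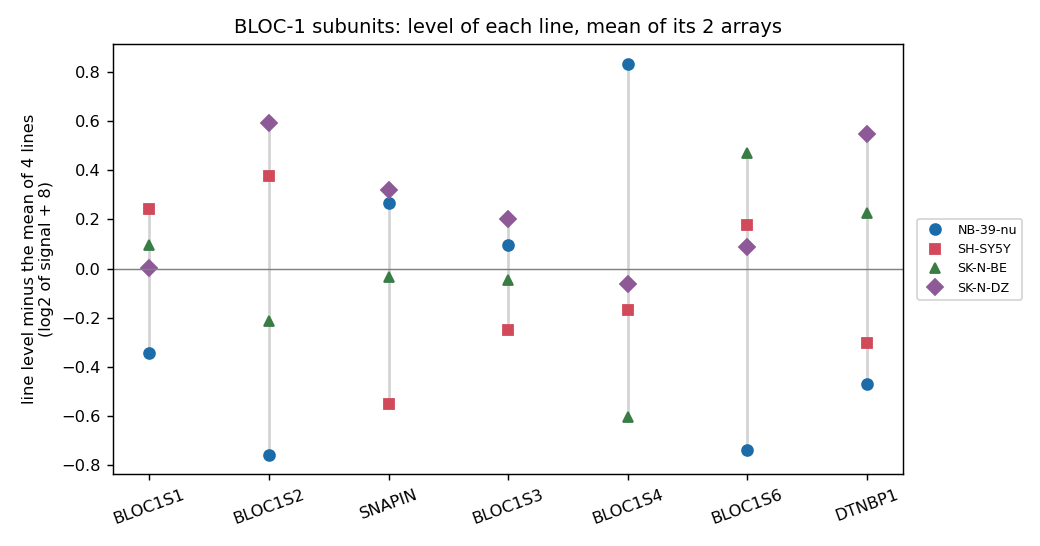
Level of each subunit in each line, as the mean log2(signal + 8) of the line's 2 arrays minus the mean over the 4 lines; grey bars span the lines. NB-39-nu is the lowest line for BLOC1S1, BLOC1S2, BLOC1S6 and DTNBP1 and the highest for BLOC1S4, at 11.47 before centring.

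No gene of the wider pathway passed the test of knockdown over all genes. Of 54 genes listed for the complexes and proteins that work with BLOC-1, 49 had a probe set of their own and 33 passed the filter on dim genes. With limma, 0 rose and 0 fell, beside the 0.0101% of all genes that passed, and 3 were higher and 1 lower at an unadjusted p under 0.05, beside 923 of the 9888 genes in either direction. The median of their mean log2 ratios was 0.03, as over all genes tested. Taking the brightest probe set of each, 3 of the 33 were higher and 3 lower in all 4 lines, beside 10.6% and 7.65% of all genes tested.

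On the brightest probe sets, the largest mean decrease among them was in HPS3, a subunit of BLOC-2, which acts after BLOC-1 in delivery to melanosomes. It read 2084 in shCont and 986 in shBMI1-1 in NB-39-nu, 1757 and 1386 in SH-SY5Y, 3289 and 2711 in SK-N-BE, and 944 and 697 in SK-N-DZ. It was lower in 4 of 4 lines but did not pass (mean log2 ratio -0.53 ± 0.37, SD, n = 4 lines; limma adjusted p = 0.401). The dimmer HPS3 probe sets had means of -0.60 ± 0.73 and -0.29 ± 0.57, each lower in 3 lines and higher in 1. The other BLOC-2 subunits, HPS5 and HPS6, had means of -0.14 and 0.18, while the second HPS6 probe set was lower in 4 of 4 lines, at -0.80 ± 1.12. HPS4 of BLOC-3, the exchange factor for the melanosome GTPases, was lower in 4 of 4 lines at a mean of -0.14 ± 0.08, while its next probe set was at 0.0040. RAB38, one of those GTPases, lay under the filter and was bright in SK-N-DZ only, at 1072 in shCont and 1147 in shBMI1-1.

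The adaptor complex AP-3, which binds BLOC-1 on endosomes, had 5 tested subunits, 3 with a mean above 0. AP3M2, its neuronal medium chain, was highest at 0.61 ± 0.36 (SD, n = 4 lines; limma adjusted p = 0.387) and higher in 4 of 4 lines. It went from 230 to 447 in NB-39-nu, 923 to 985 in SH-SY5Y, 753 to 1186 in SK-N-BE and 687 to 1156 in SK-N-DZ, but its second probe set had a mean of -0.02. AP3D1, the delta chain, was at 0.41 ± 0.37 with other probe sets at 0.01 and 0.05, and AP3S1, a small chain, was lowest at -0.04. AP3B1 was at -0.02, but its second, dimmer probe set was lower in 4 of 4 lines, at -0.77 ± 0.23. The second AP3M1 probe set went the other way, higher in 4 of 4 lines at 0.26 ± 0.21.

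The 4 tested subunits particular to BORC had means from 0.02 for BORCS5 to 0.30 ± 0.41 for BORCS7 (SD, n = 4 lines). On these brightest probe sets none was on one side of its control in all 4 lines, but the second BORCS5 probe set was lower in 4 of 4, at -0.44 ± 0.23. Among the motor proteins and adaptors that act below BORC, PLEKHM2, which links lysosomes to kinesin, was highest at 0.41 ± 0.19 and higher in 4 of 4 lines (limma adjusted p = 0.572). KLC2, a kinesin light chain, was lowest at -0.14 ± 0.50.

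Of the 11 tested endosomal fusion proteins and BLOC-1 partners, 6 had means above 0. SNAP25 was highest at 0.32 ± 0.57 and SNAP23 lowest at -0.16 ± 0.25 (SD, n = 4 lines). STX12, the gene of syntaxin 13, which pallidin binds, was at 0.11 ± 0.30, higher in 2 lines and lower in 2. DBNDD1, a relative of dysbindin, was at 0.01 ± 0.33. LAMP1, a major lysosomal membrane protein, was at 0.34 ± 0.16, higher in 4 of 4 lines but short of the threshold (limma adjusted p = 0.361). It read 12873 in shCont and 18872 in shBMI1-1 in NB-39-nu, 10143 and 11812 in SH-SY5Y, 11695 and 14937 in SK-N-BE, and 11173 and 13039 in SK-N-DZ. All 3 other LAMP1 probe sets had means above 0, at 0.28, 0.52 and 0.26. LAMP2 and the tetraspanin CD63, both of the same membranes, were each at 0.03; the other 3 LAMP2 probe sets were at -0.19, -0.05 and -0.34, the last lower in 4 of 4 lines. ATP7A, a copper pump carried to melanosomes by BLOC-1, was at 0.01.

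**Figure D5:**
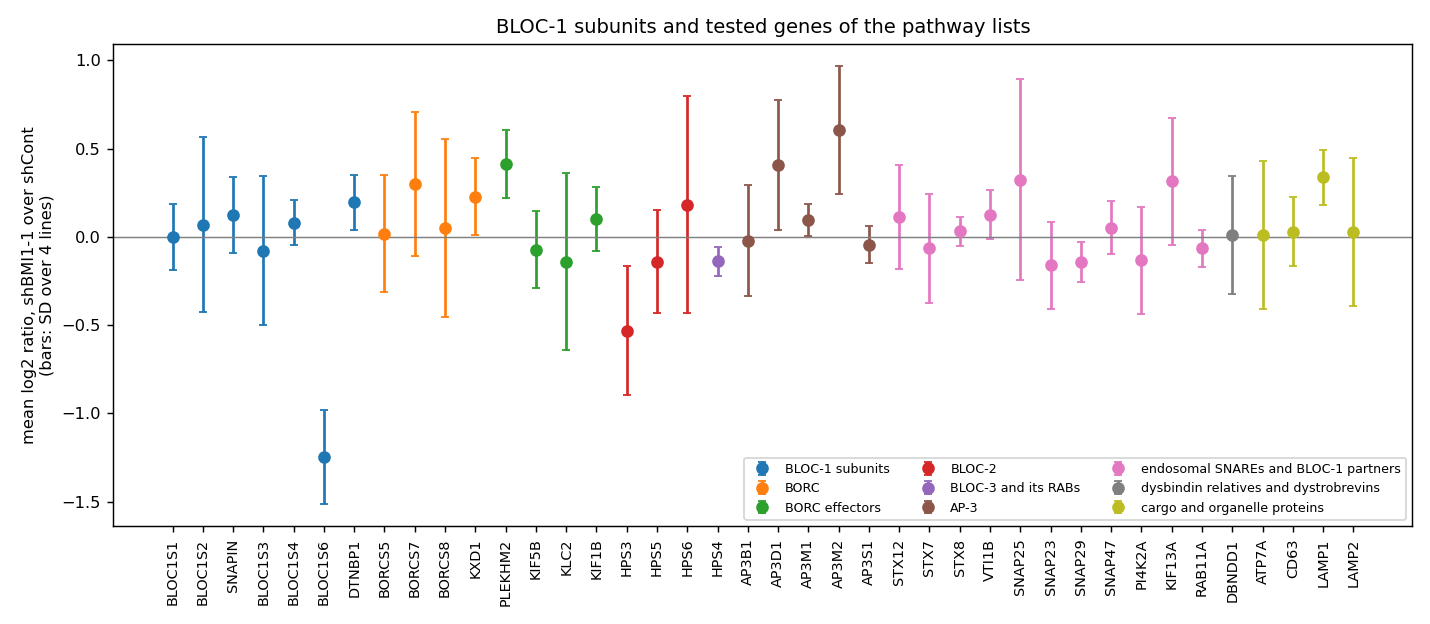
Mean log2 ratio of signal + 8, shBMI1-1 over shCont, with bars for the SD over 4 lines, for the 7 subunits with their own probe set and the 33 tested pathway genes, coloured by list. BLOC1S6 at -1.25 lies below all other genes plotted, the next lowest being HPS3 at -0.53.

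The genes whose knockdown ratios lay nearest to those of BLOC1S6 were sought among all tested genes by the root mean square distance over the 4 lines, on the log2 scale. They were SEC23A, part of the COPII vesicle coat, at 0.15, ARFGAP3, a Golgi GTPase regulator, at 0.28, SGPP1, a sphingosine phosphate phosphatase, at 0.38, STYX at 0.40 and NID1, a basement membrane protein, at 0.42. For comparison, the other BLOC-1 subunits lay between 1.21 (BLOC1S3) and 1.46 (BLOC1S2) away. A gene with no change in any line also lies far from BLOC1S6, because the distance is taken to the decreases that chose it. These distances therefore add nothing to the ratios of the subunits given above. SEC23A read 5310 and 1846 in NB-39-nu, 3022 and 1748 in SH-SY5Y, 5894 and 2519 in SK-N-BE, and 2347 and 1117 in SK-N-DZ. Its second, dimmer probe set had a mean log2 ratio of -0.06 and was lower in 1 line. The second SGPP1 probe set was lower in 4 of 4 lines, at -0.88. NID1 was near background in SK-N-DZ, at 29.6 and 1.20.

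Over the levels on all 8 arrays, which pair 2 arrays of each line, the highest Pearson r with BLOC1S6 was that of AZIN1, a regulator of polyamine synthesis, at 0.943. It was followed by ARMC1 at 0.931, RNFT1 at 0.908, LIN9, a subunit of the cell cycle regulator DREAM, at 0.904 and AKAP11, an anchor of protein kinase A, at 0.900. AZIN1 read 4179 and 1769 in NB-39-nu, 6426 and 4709 in SH-SY5Y, 7235 and 4341 in SK-N-BE, and 5194 and 2626 in SK-N-DZ. Its second probe set was lower in 4 of 4 lines too, at -0.69. Of the other subunits, BLOC1S1 had the highest r with BLOC1S6, at 0.522, which exceeded that of 92.9% of tested genes. BLOC1S4 had the lowest, at -0.634, which exceeded that of 3.41%. All these r values mix differences between lines with the decrease that chose BLOC1S6. They describe 8 arrays and carry no test.

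The protein-coding genes beside BLOC1S6 on chromosome 15 were looked up after its values were seen. Those with a probe set of their own were not lower in all lines, and SLC30A4-AS1, also annotated as protein-coding, had none. SLC30A4, a zinc transporter gene on one side, went from 816 to 369 in NB-39-nu and 986 to 644 in SH-SY5Y, but from 173 to 188 in SK-N-BE and 386 to 495 in SK-N-DZ (mean log2 ratio -0.32 ± 0.68, SD, n = 4 lines; limma adjusted p = 0.717). SEMA6D, on the other side, had a mean of -0.01 ± 0.13. SQOR, which lies between BLOC1S6 and SEMA6D, was under the filter and higher in 3 of 4 lines.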

How the data were processed

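RNA from 8 samples was measured on HG-U133 Plus 2.0 arrays, which summarise each transcript by probe sets of short probes. The deposited values are linear array intensities (signal), made with MAS5 and GCOS per the submitters' processing notes, with no version given; the mean of each array, trimmed by 2% at each end, is 500, and array medians run from 69.9 to 79.8. Present calls were not used here, and the number of arrays limits the precision.

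Of 54675 probe sets, 41097 carry 1 gene, 1801 several and 11777 none in the platform annotation; 41043 were matched to a symbol of RefSeq (GRCh38.p14). Probe sets with several genes were left out except for BMI1 and, beside the rule, BLOC1S5. Signals were taken as log2(signal + 8), which understates changes of dim genes. The probe set with the highest mean stood for a gene, and the 9888 of 19776 genes above the median were tested in limma 3.58.1 (R 4.3.3; lmFit, eBayes with trend) with terms for line and treatment, and adjusted by Benjamini-Hochberg at 0.05. The line pairs the arrays, per the labels; each of the 4 shBMI1-1 arrays correlated best with the shCont array of its own line. Labels do not say whether the samples of a line were separate cultures beyond the infection. The script was checked on simulated data.

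The members and lists were chosen with earlier results of these data known. Named are all members, BMI1 and the 5 genes nearest BLOC1S6 by each of 2 measures. The highest and lowest tested gene of each pathway list are also named. HPS5, AP3B1, AP3D1, AP3M1, RAB38, STX12, LAMP2, CD63 and the genes beside BLOC1S6 were added after their values were seen. Alternatives were no pseudocount, a pseudocount of 75, quantile normalization, all probe sets averaged, other filters, no trend, no line block, no treatment term, and each line left out.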

Additional observations from a re-analysis of the deposited data

Results flagged for a closer look

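The log2 ratio of the dimmer BLOC1S3 probe set in SK-N-DZ, 1.44, stood apart from the other lines, which lay between -2.19 and -1.77. Its signals were 98.2 or less on all 8 arrays. It was the only one of 42 groups of 4 values checked, made of the levels in each condition and the ratios of the 14 probe sets of the complex, to pass Dixon's 95% limit. Chance passes about 1 in 20.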

How the results depend on the processing

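BLOC1S6 was the 1 member lower in all lines under each of 8 alternatives, with a mean log2 ratio from -1.38 to -1.18. Where a line was left out, BLOC1S6 was bound to stay lower in the other lines, so those alternatives do not test it. Leaving a line out can also only keep or raise a count of members on one side in all lines. The number of members higher in all lines, a count added after the data were seen, was 0 with all probe sets averaged, and from 1 to 2 when 1 line was left out: SNAPIN joined DTNBP1 without SK-N-BE, and BLOC1S4 without SK-N-DZ. With all probe sets averaged, BLOC1S3 had a mean of -0.61. The number of members that differed between lines was 4 or 5 under 12 alternatives; the stricter filter left 4 members to test. SNAPIN did not pass without SH-SY5Y, nor BLOC1S6 without NB-39-nu or without the treatment term. No pathway gene passed under any of 12 alternatives, including the fit with no replicate block (0 genes, limma), so dropping the pairing by line changed no call there. Over all genes, between 0 and 2 passed. Quantile normalization moved no count for a pair of lines by over 1.5 times. Means of BLOC1S1, BLOC1S2 and BLOC1S3 lay close enough to 0 to change sign with 1 line left out.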
